A study of Apera spica-venti with 32 samples.

Results

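Leaves of 2 herbicide-susceptible populations of the grass weed silky windgrass (Apera spica-venti), S2 and S1, were compared 8 h after both had been sprayed with pinoxaden. The comparison rests on 8 of the 32 RNA sequencing libraries of the study, 4 of sprayed S2 and 4 of sprayed S1, chosen by their labels. The study holds 4 populations, the susceptible S1 and S2 and the multiply resistant R1 and R2, each sprayed and untreated with 4 libraries per group. Each library pooled the leaves of 3 greenhouse plants at the early leaf stage, so the spread between libraries is a spread between pools and not between single plants. Sprayed S2 and sprayed S1 plants received pinoxaden in the commercial formulation Axial 50 EC, dosed at 45 g per ha of the active ingredient, and leaves were harvested 8 h afterwards. Untreated S2 and untreated S1 plants are the controls without herbicide. The labels record neither a mock spray with the formulation lacking its active ingredient nor the harvest time of the untreated plants, so handling, formulation and time of day cannot be told apart from the herbicide. Population S1 and population S2 are described only as susceptible: their origin and how they are related are not given in the sources used here.

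Pinoxaden inhibits acetyl-CoA carboxylase, the enzyme that commits acetyl-CoA to fatty acid synthesis, and grasses are sensitive because their chloroplast form of the enzyme is a single large protein that binds the compound. Plants that meet such a compound commonly induce detoxification proteins: cytochrome P450 enzymes oxidise it, glutathione transferases and UDP-glycosyltransferases (UGT) attach glutathione or sugars, and ABC transporters move the products across membranes. Stressed leaves also commonly change ribosome production, translation and photosynthesis.

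Reads had been counted by the authors per open reading frame of an assembled transcriptome, and each such reading frame is called a feature here. Several features can lie on 1 assembled contig and then share reads. The table holds 39590 features, of which 25036 on 20677 contigs passed a filter on low counts and were tested. Levels are given as CPM, counts divided by the scaled size of their library. They can be compared between groups for 1 feature, but not between features, since feature lengths were not used. Protein descriptions were deposited only for features that the authors had listed as differentially expressed between the classes of plants, and 7697 of the tested features have one. Total counts were between 30570000 and 31730000 in sprayed S2 libraries and between 29560000 and 38960000 in sprayed S1 libraries. Features described as ribulose bisphosphate carboxylase, chlorophyll-binding or photosystem proteins, which define green leaf, took 64.7% to 66.9% of counts in sprayed S2 and 61.6% to 65.8% in sprayed S1. Words for flower and pollen, root or seed storage took at most 0.019% of counts each in these 8 libraries. Of 12 measures of library composition, each tested with and without spray (24 tests), none differed between populations after Benjamini-Hochberg adjustment of exact two-sided permutation tests (smallest adjusted p = 0.611). The smallest unadjusted value, p = 0.0286 in the exact permutation test, is also the smallest that 4 libraries against 4 allow. It belongs to the share of histone and cell division features, which was 0.0158% to 0.0182% in sprayed S2 and 0.0191% to 0.0235% in sprayed S1. An adjusted p under 0.05 needed many of the 24 tests at the smallest possible value together. The tests therefore do not show that composition was equal. Libraries are bulk leaf, so fewer cells of a type and less RNA per cell cannot be told apart in any level given here.

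Between the sprayed populations, 336 features (1.34% of those tested) were called at an adjusted p under 0.05 (edgeR's quasi-likelihood test with Benjamini-Hochberg adjustment over all tested features). In sprayed S2, 151 features (0.603%) were higher and 185 (0.739%) were lower than in sprayed S1. The called features lay on 298 contigs, and no contig had calls in both directions. The lower features differed more in size. Their median log2 fold change was -1.12, and 112 of 185 differed by at least 1 on the log2 scale. The higher features had a median log2 fold change of 0.60, and 35 of 151 differed by at least 1. All sprayed S2 libraries lay below all sprayed S1 libraries for 144 of the 185 lower features, against 3.89% of all tested features, and above them for 143 of the 151 higher features, against 4.6%. Those separations and the calls come from the same libraries, so they describe the calls and do not support them.

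Single libraries weighed heavily on the number of calls. It was 65 without sprayed S2 replicate 1, 79 without sprayed S2 replicate 3, 171 without sprayed S2 replicate 4, 158 without sprayed S1 replicate 1, 94 without sprayed S1 replicate 2 and 76 without sprayed S1 replicate 3. It was 245 without sprayed S2 replicate 2 and 401 without sprayed S1 replicate 4. In all 8 of these fits, 47 features were called again in the same direction, 14 higher and 33 lower in sprayed S2. Of 95 called features followed one by one, which include most of those named below, 65 lost their call in at least 1 of these fits, 59 with the 8 sprayed libraries alone, 41 with the 16 libraries of S2 and S1 and 22 with library totals alone, while 13 kept it under every alternative. The balance of directions depends on the scaling. With library totals alone, 25 features were higher and 265 lower in sprayed S2, and the median of all tested features moved to -0.17 on the log2 scale, against 0.00 (log2) with the scaling used here.

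**Figure D1:**
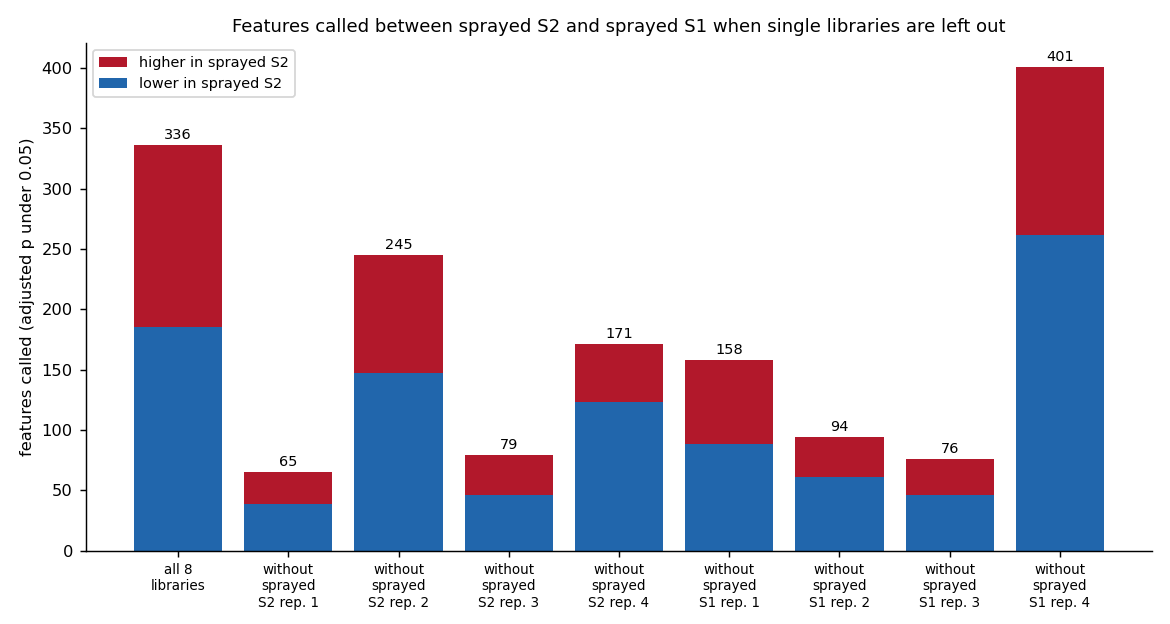
Number of features called between sprayed S2 and sprayed S1 (y axis, adjusted p under 0.05) with all 8 sprayed libraries and with each library left out in turn (x axis), split into higher (upper part of each bar) and lower (lower part) in sprayed S2. The count is 336 with all libraries and lies between 65 and 401 without single ones.

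Without herbicide the same populations differed at only 2 features (0.00799% of those tested), both higher in untreated S2, while 1364 features had an unadjusted p under 0.05. DESeq2 called 58 and limma-voom called 4 features between the untreated populations. The test of whether the population difference itself changed with spraying called 7 features (0.028%), all lower in sprayed S2 relative to sprayed S1 than without spray. No feature was called in the other direction by edgeR or limma-voom, while 989 had an unadjusted p under 0.05 in it and DESeq2 called 35. Without sprayed S1 replicate 4 edgeR called 6 in that direction and 33 lower, and without untreated S2 replicate 1 or untreated S1 replicate 3 it called 1. Of the 336 features called between the sprayed populations, 7 therefore count as changed with spraying and 2 as present in both conditions. The remaining 327 are unassigned: neither the untreated difference nor the change passed its test. Some of them still differed in counts without spray. The undescribed TRINITY_DN22336_c0_g1_i2.p3 had 172 counts over untreated S2 and 0 over untreated S1, and 96 and 0 with spray. TRINITY_DN52394_c0_g3_i1.p1, also undescribed, had 152 and 0 without spray, and 49 and 0 with spray. The median untreated log2 fold change was 0.07 over the higher features and 0.01 (log2) over the lower ones. The plot of the sprayed against the untreated difference shows the called features by direction.

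**Figure D2:**
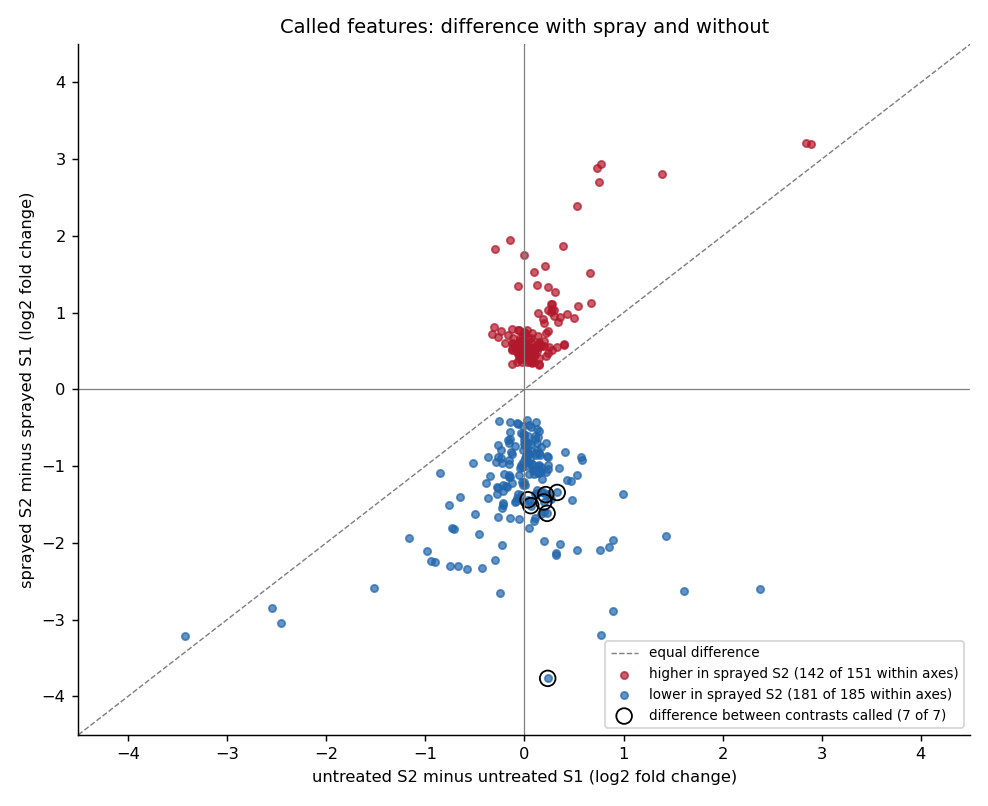
Log2 fold change of S2 minus S1 in sprayed leaves (y axis) against the same in untreated leaves (x axis) for the features called between the sprayed populations, with 13 features beyond the axes not drawn. Red points are the features higher and blue points those lower in sprayed S2, black rings mark the 7 whose difference changed with spraying, and the dashed line marks an equal difference in both conditions. The median on the x axis is 0.07 for the higher and 0.01 for the lower features.

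The 7 features whose difference changed with spraying lie on 5 contigs. The clearest is a sulfite exporter TauE/SafE family protein 4 (TRINITY_DN3389_c0_g1_i17.p1), a member of a family of membrane proteins named after bacterial sulfite and organosulfonate carriers. Its level was 2.89, 3.40, 2.13 and 4.20 CPM in the sprayed S2 libraries, against 8.83, 9.92, 12.4 and 7.503 CPM in the sprayed S1 libraries. In untreated leaves it was 2.95, 2.45, 2.29 and 2.61 CPM in S2, against 2.52, 2.40, 2.01 and 1.87 CPM in S1. The sprayed groups do not overlap, and every sprayed S1 library lies above every untreated library of either population. The sprayed log2 fold change was -1.61 ± 0.17 (SE, adjusted p = 8.4e-06), the untreated one 0.23 ± 0.18 (adjusted p = 0.987), and their difference -1.84 ± 0.25 (adjusted p = 0.000779). Another reading frame of this contig, TRINITY_DN3389_c0_g1_i17.p3, described as an unnamed protein, had a difference of -1.66 (adjusted p = 0.0112).

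The second named feature is the large subunit of 3-isopropylmalate dehydratase (TRINITY_DN311_c0_g1_i24.p1), which catalyses the isomerisation step of leucine synthesis in the chloroplast. Its level was 51.1, 78.4, 63.1 and 73.1 CPM in sprayed S2, against 149, 243, 258 and 110 CPM in sprayed S1. Untreated leaves had 46.6, 39.9, 41.1 and 41.5 CPM in S2, against 43.0, 37.5, 40.6 and 40.6 CPM in S1. Sprayed S1 was thus above every other group in all its libraries, and sprayed S2 lay between sprayed S1 and the untreated leaves. The sprayed log2 fold change was -1.51 ± 0.20 (SE, adjusted p = 0.000176), and the difference from the untreated one was -1.58 ± 0.28 (adjusted p = 0.0224). The other reading frame of the contig, TRINITY_DN311_c0_g1_i24.p2, had a difference of -1.48 (adjusted p = 0.0305). The other 3 contigs hold 1 such feature each, all described only as unnamed proteins. Their differences were -1.59 for TRINITY_DN265_c0_g2_i3.p1 (adjusted p = 0.00663), -1.67 for TRINITY_DN4497_c0_g1_i18.p1 (adjusted p = 0.0125) and -4.00 for TRINITY_DN3730_c0_g1_i170.p1 (adjusted p = 0.0448). These unnamed features are given because they complete the 7, and were chosen after their values were seen. The number of such features was 2 without sprayed S2 replicate 1, untreated S1 replicate 2 or untreated S1 replicate 4, and 3 without sprayed S1 replicate 2, sprayed S1 replicate 3 or untreated S1 replicate 1. It was 4 without untreated S2 replicate 3 or 4, and 39 without sprayed S1 replicate 4, of which 33 were lower and 6 higher. With the 16 libraries of S2 and S1 alone in the fit edgeR called none of them, while 860 features were higher and 971 lower at an unadjusted p under 0.05, and with all 32 libraries limma-voom called 3 and DESeq2 113.

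**Figure D3:**
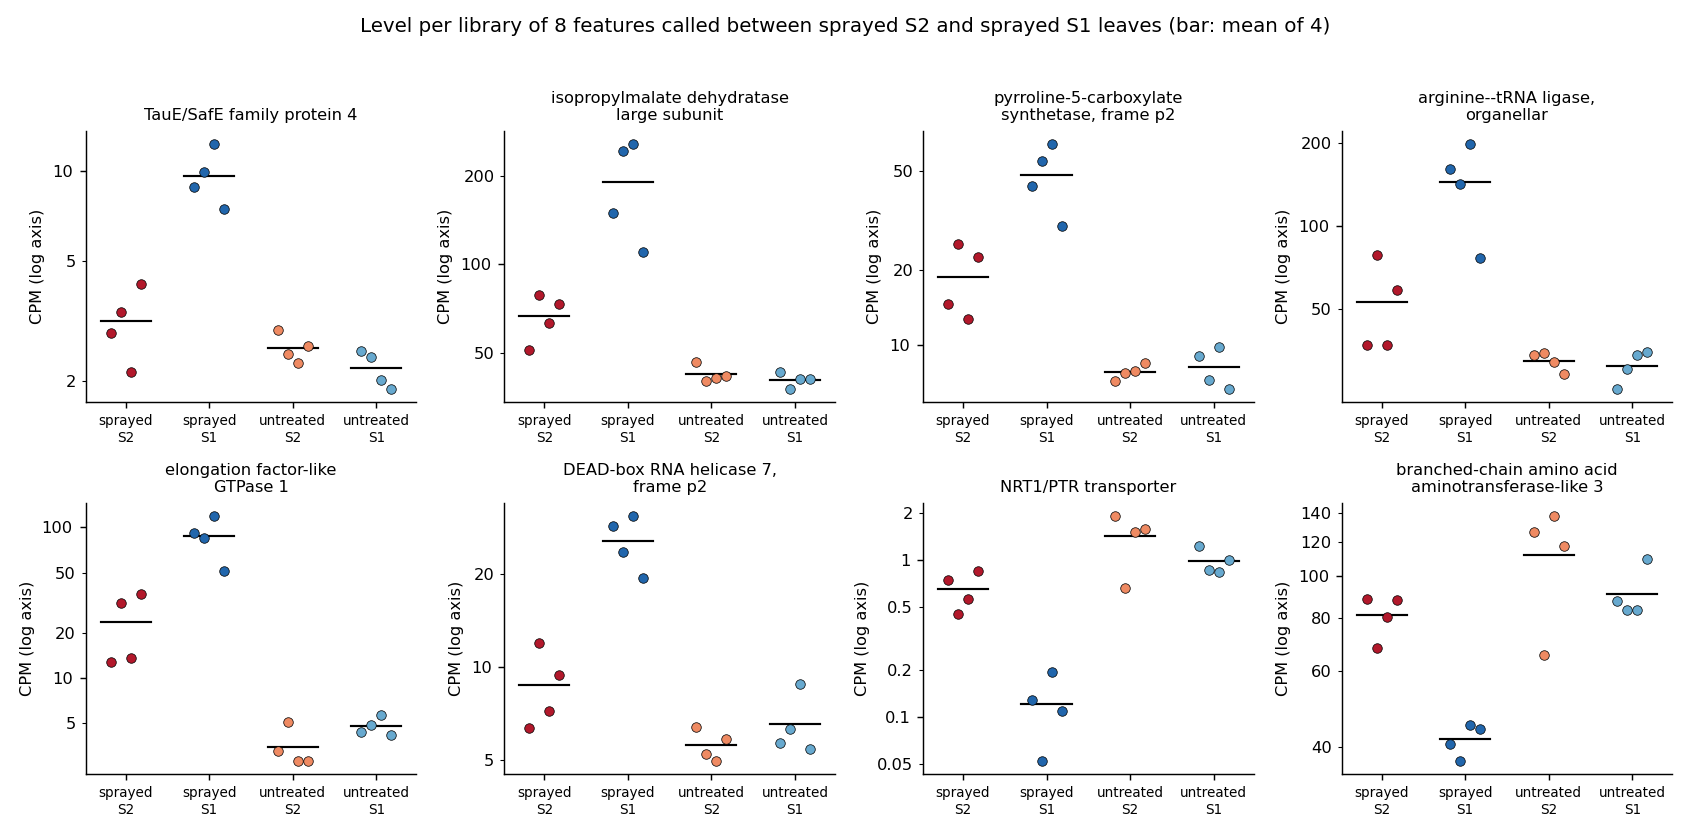
Level in CPM (y axes, log scale) of 8 called features in the 4 libraries of each group (x axis: sprayed S2, sprayed S1, untreated S2, untreated S1). Points are libraries and bars are means. The first 6 features are lower in sprayed S2 than in sprayed S1 and the last 2, NRT1/PTR transporter and aminotransferase-like 3, are higher, while the untreated groups lie closer together.

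Of the 2 susceptible populations, only S2 had counts of the 2 features that differed in both conditions. A feature described as hypothetical protein BRADI_3g09532v3 (TRINITY_DN22336_c0_g1_i2.p1) had 577 counts over the sprayed S2 libraries and 0 over the sprayed S1 libraries, and 1098 counts over untreated S2 and 0 over untreated S1. With a floor of 3 counts over the group at 0, it was at least 233-fold higher in sprayed S2 and at least 385-fold higher in untreated S2. The other feature, TRINITY_DN52394_c0_g1_i1.p1, described as an uncharacterized protein, had 152 counts in sprayed S2 and 0 in sprayed S1, and 333 in untreated S2 and 0 in untreated S1, at least 61.4-fold and at least 117-fold higher. Both were chosen after their values were seen, and both were called again in the sprayed comparison in all 8 fits that leave out a sprayed library. With limma-voom both kept the sprayed call but neither was called between the untreated populations. Of the tested features, 34 had at least 40 counts over the S2 libraries and none in any S1 library, and 26 had the reverse. A count of 0 says that no read was assigned to the feature. Absence of the gene, an allele that does not align and absence of transcript cannot be told apart in these files.

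Not all features found in only 1 of S2 and S1 were shared by the libraries of that population. Their counts in R1 and R2 were not examined. The feature with the most counts found in S2 only, TRINITY_DN5762_c0_g1_i3.p1, had 150 CPM in sprayed S2 replicate 1 and 174 CPM in untreated S2 replicate 1, and at most 0.0337 CPM in the other S2 libraries. It was not called (adjusted p = 0.35). Neither was TRINITY_DN13508_c0_g1_i1.p1, found among the S2 and S1 libraries in the same ones alone, with 61.0 and 92.3 CPM. The feature with the most counts found in S1 only, TRINITY_DN26631_c0_g1_i3.p1, had 0, 18.2, 20.9 and 35.2 CPM in sprayed S1 and 11.3, 46.6, 6.91 and 31.9 CPM in untreated S1, so that 7 of 8 libraries held it. Its adjusted p was 0.0519.

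Enzymes of proline and branched-chain amino acid synthesis were among the named lower features. A list of 15 tested features for these pathways, drawn up after the called features had been seen, held 7 lower and 1 higher call in sprayed S2, 53.3% of members against 3.57% of all described features. Its median log2 fold change was -0.36, against 0.00 (log2) over all tested features. The 15 features lie on 12 contigs, and the 7 lower calls on 4. Delta-1-pyrroline-5-carboxylate synthetase carries out the entry step of proline synthesis from glutamate, and 3 reading frames of 1 contig bear this description in different wordings. The frame TRINITY_DN4232_c0_g1_i24.p2 had 14.6, 25.4, 12.7 and 22.5 CPM in sprayed S2, against 43.7, 54.8, 64.6 and 29.96 CPM in sprayed S1. All sprayed S2 libraries lay below all sprayed S1 libraries. The untreated means were 7.79 ± 0.55 CPM in S2 and 8.15 ± 1.498 CPM in S1 (SD, n = 4 each), so that both populations were higher with spray. The log2 fold change between the sprayed populations was -1.36 ± 0.21 (SE, adjusted p = 0.000934), with -1.38 and -1.34 (log2) for the other frames.

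Threonine dehydratase, the entry enzyme of isoleucine synthesis, had log2 fold changes of -0.99 (adjusted p = 0.0156) and -0.95 (adjusted p = 0.0156) in 2 frames of 1 contig. Their sprayed libraries overlapped between the populations. The small subunit of 3-isopropylmalate dehydratase had 33.7, 43.8, 30.1 and 49.1 CPM in sprayed S2, against 71.1, 63.6, 87.0 and 50.2 CPM in sprayed S1, a log2 fold change of -0.79 ± 0.17 (SE, adjusted p = 0.0222). Ornithine aminotransferase, an enzyme of arginine breakdown outside the list and chosen after its value was seen, was lower as well (-0.64 on the log2 scale, adjusted p = 0.046). The higher call of the list is a branched-chain-amino-acid aminotransferase-like protein 3 (TRINITY_DN2401_c0_g1_i2.p1). The aminotransferases it is named after carry out the last step of synthesis of these amino acids. It had 88.5, 67.8, 80.3 and 87.9 CPM in sprayed S2, against 40.7, 37.0, 45.0 and 44.1 CPM in sprayed S1, a log2 fold change of 0.96 ± 0.18 (SE, adjusted p = 0.0063). Its untreated libraries overlapped, at 65.5 to 138 CPM in S2 and 83.5 to 110 CPM in S1. With the 8 sprayed libraries alone in the fit 1 member was called. The 8 calls of the list were 5 without sprayed S2 replicate 1, sprayed S2 replicate 3 or sprayed S1 replicate 3.

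Parts of the translation machinery were lower in sprayed S2. Of 66 tested translation factors and tRNA ligases, 15 were lower and 2 higher in sprayed S2, 25.8% of members against 3.57% of all described features. The median log2 fold change of the list was -0.38, against -0.05 over all described features, and 0.02 (log2) between the untreated populations. Elongation factor 1, which delivers aminoacyl-tRNA to the ribosome, had 396, 741, 509 and 802 CPM in sprayed S2, against 1442, 1531, 1706 and 954 CPM in sprayed S1, without overlap. Its log2 fold change was -1.20 ± 0.22 (SE, adjusted p = 0.00519). An organellar arginine--tRNA ligase (TRINITY_DN526_c0_g1_i12.p1), which charges tRNA with arginine, had 36.8, 78.7, 36.9 and 58.5 CPM in sprayed S2, against 162, 142, 200 and 76.3 CPM in sprayed S1. Only sprayed S1 replicate 4 and sprayed S2 replicate 2 overlap. The log2 fold change was -1.46 ± 0.22 (SE, adjusted p = 0.000934).

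Besides 3 factors described in the next paragraphs, the lower members include 2 frames of elongation factor 1-gamma (-0.90 and -0.87 on the log2 scale), elongation factor 2 (-0.60), which moves the ribosome along the message, initiation factor 2 subunit beta (-0.96), initiation factors 5 (-0.66), 5B (-0.42) and 3 subunit J-A (-0.64), and ligases for phenylalanine (-1.08), serine (-1.22) and isoleucine (-0.95). Both higher members are chloroplast proteins. Elongation factor G-2 averaged 318 ± 10.6 CPM in sprayed S2 and 239 ± 15.1 CPM in sprayed S1 (SD, n = 4 each), a log2 fold change of 0.41 ± 0.09 (SE, adjusted p = 0.0257). Elongation factor Tu averaged 373 ± 12.52 CPM in sprayed S2 and 298 ± 29.1 CPM in sprayed S1 (SD, n = 4 each), a log2 fold change of 0.32 ± 0.08 (SE, adjusted p = 0.0457). With library totals alone the list had 14 lower calls and no higher one. Its 17 calls were 4 without sprayed S2 replicate 1 or 3, 9 without sprayed S2 replicate 4 or sprayed S1 replicate 1, and 5 without sprayed S1 replicate 2 or 3.

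Several lower features belong to the late assembly of the large ribosomal subunit, as worked out in yeast and animal cells. There, initiation factor 6 keeps the nearly finished subunit from joining the small one, NMD3 exports it from the nucleus, and elongation factor-like GTPase 1 together with SBDS releases initiation factor 6. Elongation factor-like GTPase 1 (TRINITY_DN8742_c0_g1_i3.p1) had 12.8, 31.7, 13.6 and 36.3 CPM in sprayed S2, against 92.3, 85.4, 120 and 51.0 CPM in sprayed S1. The groups do not overlap, and untreated leaves had 2.79 to 5.09 CPM in S2 and 4.19 to 5.64 CPM in S1. The log2 fold change was -1.88 ± 0.32 (SE, adjusted p = 0.00297). NMD3 averaged 7.64 ± 0.48 CPM in sprayed S2 and 12.9 ± 2.92 CPM in sprayed S1 (SD, n = 4 each), a log2 fold change of -0.75 (adjusted p = 0.00309). SBDS averaged 5.10 ± 1.42 CPM in sprayed S2 and 8.81 ± 0.48 CPM in sprayed S1 (SD, n = 4 each), a log2 fold change of -0.79 (adjusted p = 0.046).

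Initiation factor 6-2 was nearly silent in untreated leaves, with 1 count over the untreated S2 libraries and 3 over the untreated S1 libraries for the frame TRINITY_DN2098_c0_g1_i46.p1. With spray this frame had 1.16, 6.86, 2.73 and 5.08 CPM in S2, against 18.6, 13.0, 19.8 and 8.96 CPM in S1, without overlap. The log2 fold change between the sprayed populations was -1.93 ± 0.49 (SE, adjusted p = 0.0479), and the other frame had -1.92 (adjusted p = 0.0363). Among features chosen after their values were seen, GTPase LSG1-2, whose yeast counterpart acts with NMD3, was lower by the same test (-1.02 on the log2 scale, adjusted p = 0.0363). So was subunit 1 of RNA polymerase I, which transcribes ribosomal RNA genes (-1.35, adjusted p = 0.0319). Elongation factor-like GTPase 1 and NMD3 were called in all 8 fits that leave out a sprayed library. The polymerase subunit was called in 3, LSG1-2 and each frame of initiation factor 6-2 in 2, and SBDS in 1.

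A wider list of 51 tested ribosome assembly and nucleolar features, also drawn up after the calls had been seen, held 9 lower calls and no higher one, 17.6% of members against 3.57% of described features. No member was higher at an unadjusted p under 0.05, and neither DESeq2 nor limma-voom called one, while 35 were lower at that level. The median was -0.78 on the log2 scale in sprayed leaves and -0.07 (log2) in untreated leaves. Sprayed S2 libraries lay below all sprayed S1 libraries for 32 of the 51, against 8.12% of all described features. Besides those above, the calls include nucleolar protein 14 (-0.89), nucleolar complex protein 2 (-0.55), the WD repeat protein PCN (-1.14), periodic tryptophan protein 1 (-0.94) and 2 frames of PNO1 (-0.99 and -1.24, all log2), which acts on the small subunit in yeast. The 9 calls were 4 without sprayed S2 replicate 1 or sprayed S1 replicate 1, 2 or 3, 3 without sprayed S2 replicate 3, 5 without sprayed S2 replicate 4 and 6 without sprayed S2 replicate 2.

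Of the ribosomal proteins themselves few were called. Of 85 tested, 4 were lower and 1 higher, 5.88% of members against 3.57% of described features, while the median was -0.59 (log2) and 46 were lower at an unadjusted p under 0.05. Libraries of sprayed S2 lay below all those of sprayed S1 for 47 of the 85, against 8.12% of described features. The named lower call is 40S ribosomal protein S8, at 5.48, 7.28, 6.10 and 8.97 CPM in sprayed S2, against 11.8, 15.4, 14.1 and 10.7 CPM in sprayed S1 (log2 fold change -0.90 ± 0.19, SE, adjusted p = 0.0161). The other lower calls are L7-1 (-0.97), L15-2 (-0.81) and the organellar S16-2 (-1.51, all log2). The higher call is the chloroplast protein S31, at 34.6, 35.0, 33.8 and 34.9 CPM in sprayed S2, against 29.2, 26.8, 23.7 and 26.4 CPM in sprayed S1 (0.38 ± 0.10 on the log2 scale, SE, adjusted p = 0.0435). With library totals alone no ribosomal protein was called higher, and with the 8 sprayed libraries alone 24 were called lower. The 5 calls were 0 without sprayed S2 replicate 1 or 3, or sprayed S1 replicate 2 or 3, and 3 without sprayed S2 replicate 2 or 4, or sprayed S1 replicate 1.

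Of 78 splicing and RNA helicase features, 8 were lower and none higher in sprayed S2 by edgeR (10.3% of members against 3.57% of described features). At an unadjusted p under 0.05, 23 were lower and 3 higher, and DESeq2 called 17 lower and 2 higher, limma-voom 17 lower and 1 higher. The median was -0.45 (log2) with spray and 0.02 (log2) without. DEAD-box RNA helicase 7, a nucleolar enzyme of ribosomal RNA maturation in Arabidopsis, leads the list. Its frame TRINITY_DN1575_c0_g1_i31.p2 had 6.36, 11.9, 7.20 and 9.41 CPM in sprayed S2, against 28.5, 23.6, 30.8 and 19.3 CPM in sprayed S1. All sprayed S2 libraries were below all sprayed S1 libraries. The log2 fold change was -1.55 ± 0.24 (SE, adjusted p = 0.00108), and the untreated one was -0.22. The other members called include helicase DExH14 (-0.54), a putative pre-mRNA-splicing helicase (-0.44), a YprA-like helicase (-0.99) and U2 small nuclear ribonucleoprotein B'' (-0.81, log2), a part of the spliceosome. The 2 frames of PNO1 described above are counted here too, as RNA-binding proteins. The 8 calls were 3 without sprayed S2 replicate 1 or sprayed S1 replicate 2 or 3, 2 without sprayed S2 replicate 3, 4 without sprayed S1 replicate 1 and 12 without sprayed S1 replicate 4.

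**Figure D4:**
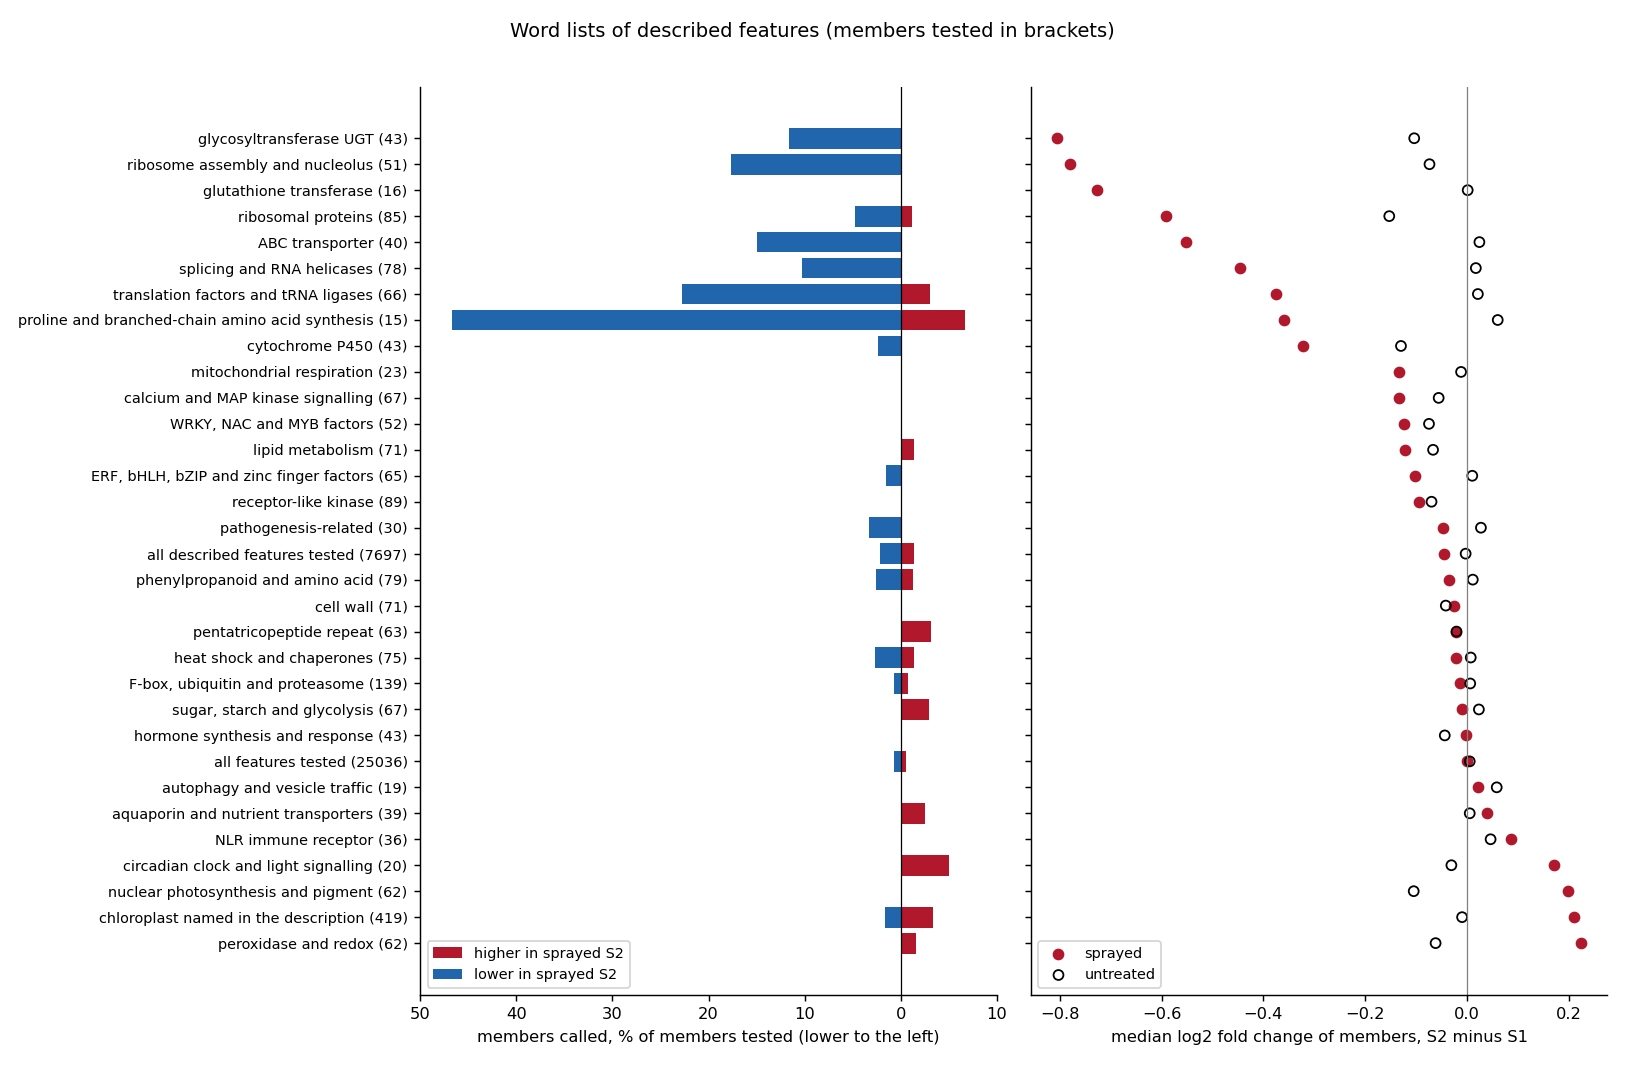
Word lists over the deposited descriptions, with members tested in brackets. The left panel gives the share of members called lower (left of 0) and higher (right of 0) in sprayed S2, and the right panel the median log2 fold change of S2 minus S1 over all tested members in sprayed leaves (filled) and untreated leaves (open). Sprayed medians run between -0.81 for UGT and 0.22 for peroxidase and redox features, and the untreated median of UGT is -0.10.

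The calls in the detoxification families were all lower in sprayed S2. At an unadjusted p under 0.05, 3 UGT, 3 ABC and 7 P450 features were higher, and neither DESeq2 nor limma-voom called one of these higher. Of 43 UGT features 5 were lower (11.6% of members against 3.57% of described features called), with a list median of -0.81 (log2) with spray and -0.10 (log2) without. UGT84C2 had 6.12, 8.87, 7.35 and 8.26 CPM in sprayed S2, against 16.4, 12.4, 21.5 and 10.5 CPM in sprayed S1, without overlap. Its log2 fold change was -0.99 ± 0.20 (SE, adjusted p = 0.0142). The feature described as UDP-glycosyltransferase 74F2-like, whose Arabidopsis namesake acts on salicylic acid, had 5.17, 21.1, 7.76 and 7.48 CPM in sprayed S2, against 66.5, 42.5, 82.1 and 18.2 CPM in sprayed S1. Sprayed S2 replicate 2 and sprayed S1 replicate 4 overlap. In untreated leaves it was at most 0.183 CPM in S2 and 0.201 CPM in S1. Its log2 fold change was -2.33 ± 0.48 (SE, adjusted p = 0.017). The other calls are UGT98B4 (-1.47), UGT75K6 (-1.97) and a 74E1-like enzyme (-2.22, all log2). The 5 calls were 0 without sprayed S2 replicate 1 or sprayed S1 replicate 3, 1 without sprayed S2 replicate 3, 2 without sprayed S1 replicate 2, 3 without sprayed S2 replicate 4 or sprayed S1 replicate 1 and 4 without sprayed S2 replicate 2.

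Of 40 ABC transporter features 6 were lower (15%, against 3.57% of described features called), with a median of -0.55 (log2). By their descriptions 4 of the 6 belong to subfamilies E and F, which lack membrane domains and act on ribosomes or in translation in yeast. ABC transporter F family member 4 averaged 31.9 ± 5.81 CPM in sprayed S2 and 58.7 ± 10.7 CPM in sprayed S1 (SD, n = 4 each), a log2 fold change of -0.88 ± 0.14 (SE, adjusted p = 0.000934). The membrane carriers called are C family member 8-like (-1.06, adjusted p = 0.0444) and G family member 48-like (-2.01, adjusted p = 0.0161, both log2). The G family carrier had 1.33, 1.08, 0.563 and 0.541 CPM in sprayed S2, against 5.88, 3.72, 3.45 and 1.09 CPM in sprayed S1, with overlap at sprayed S1 replicate 4. The 6 calls were 2 without sprayed S2 replicate 1 or sprayed S1 replicate 1, 2 or 3, 1 without sprayed S2 replicate 3 and 3 without sprayed S2 replicate 2 or 4.

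Of 43 cytochrome P450 features 1 was lower, 2.33% of members and near the 3.57% of described features called. P450 72A15 had 26.3, 40.6, 41.1 and 43.2 CPM in sprayed S2, against 72.5, 81.4, 110 and 49.5 CPM in sprayed S1 (log2 fold change -1.05 ± 0.23, SE, adjusted p = 0.019), without overlap. It was not called without sprayed S2 replicate 1 or sprayed S1 replicate 2 or 3, and 3 P450 features were called lower without sprayed S1 replicate 4. None of 16 glutathione transferases was called by edgeR or DESeq2, limma-voom called 1 lower, and 3 were lower at an unadjusted p under 0.05, with a list median of -0.73 (log2). Acetyl-CoA carboxylase, the target of pinoxaden, did not differ beyond the spread of the libraries. Its feature TRINITY_DN1720_c0_g2_i1.p1 had 219, 208, 223 and 204 CPM in sprayed S2, against 204, 211, 173 and 237 CPM in sprayed S1 (log2 fold change 0.05 ± 0.13, SE, adjusted p = 0.913). The other, described as the cytosolic form, differed by -0.15 ± 0.13 (log2, SE, adjusted p = 0.672).

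Of the features higher in sprayed S2, only 4 with an informative description differed by at least 1 on the log2 scale. The NRT1/PTR family transporter (TRINITY_DN6659_c0_g1_i6.p4), of a family that carries nitrate, peptides and other small solutes, had 0.748, 0.453, 0.563 and 0.846 CPM in sprayed S2, against 0.128, 0.0520, 0.194 and 0.1095 CPM in sprayed S1. These levels come from 16 to 25 counts per library in sprayed S2 and from 2 to 8 in sprayed S1. The groups do not overlap, and untreated leaves had 1.41 ± 0.53 CPM in S2 and 0.98 ± 0.17 CPM in S1 (SD, n = 4 each). The log2 fold change was 2.38 ± 0.43 (SE, adjusted p = 0.00364). It was not called with limma-voom (2.36, log2) or with the 8 sprayed libraries alone (2.38, log2), nor when counts were summed over the assembler's gene, where the log2 fold change was 0.59. The F-box protein At5g04010, of a family that selects proteins for ubiquitination, had 31 counts over sprayed S2 and 1 over sprayed S1. That is a 37.5-fold ratio with an exact 95% counting interval of 6.26 to 1530, which covers counting error only. The co-chaperone dnaJ 72-like (1.53 ± 0.35, adjusted p = 0.0251) and phosphoenolpyruvate carboxylase kinase 2-like, which phosphorylates the enzyme it is named after (2.80 ± 0.72, adjusted p = 0.0463, both log2 with SE) complete the group. By their means all 4 were below the untreated level with spray, in S2 and in S1.

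The higher set as a whole had that pattern: its median level was 13.3 CPM in sprayed S2, 8.71 CPM in sprayed S1, 16.1 CPM in untreated S2 and 14.1 CPM in untreated S1. The lower set had medians of 5.19 CPM in sprayed S2, 12.2 CPM in sprayed S1, 3.19 CPM in untreated S2 and 3.05 CPM in untreated S1. The response to spray had a median log2 fold change of -0.24 in S2 and -0.81 in S1 over the higher set, and 0.63 (log2) in S2 and 1.69 (log2) in S1 over the lower set. These responses share the sprayed libraries with the comparison, so they show where the values lie and are no separate evidence. Over all features, the response to spray called 1804 features in S2 (7.21%) and 5000 in S1 (20%).

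Features described as chloroplast proteins had calls in both directions. Of 419 tested features whose description names the chloroplast, a list drawn up after the calls had been seen, 14 were higher and 7 lower (5.01% of members against 3.57% of described features). The median was 0.21 (log2) with spray and -0.01 (log2) without, and sprayed S2 libraries lay above all sprayed S1 libraries for 102 members, against 7.68% of described features. The direction rests on the scaling: with library totals alone 1 member was higher and 8 were lower, with a median of 0.03 (log2). A ribonuclease E/G-like protein (TRINITY_DN366_c0_g1_i73.p2), whose Arabidopsis counterpart matures chloroplast RNA, had 11.4, 10.8, 12.2 and 12.1 CPM in sprayed S2, against 6.04, 7.47, 7.44 and 8.27 CPM in sprayed S1. It was called in all 8 fits that leave out a library but not with library totals alone, with a log2 fold change of 0.67 ± 0.12 (SE, adjusted p = 0.00306). Another frame of this contig with the same description, TRINITY_DN366_c0_g1_i73.p4, had 0.69 (log2) and was called in only 1 of these fits.

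Other higher chloroplast features were the copper-transporting ATPase PAA2 (0.52), the photosystem I iron-sulfur assembly factor HCF101 (0.41), the cytochrome c maturation protein CCS1 (0.44) and CRR6, an assembly factor of the NDH complex of cyclic electron flow (0.44). The small subunit of glucose-1-phosphate adenylyltransferase, which makes the sugar donor of starch synthesis, was higher by 0.32 (all log2). Lower chloroplast features included chaperone ClpD1 (-1.37) and the UV-B-induced protein At3g17800 (-0.81, both log2). Of the fits that leave out a sprayed library, none called PAA2 or the adenylyltransferase subunit. HCF101 and CCS1 were called in 1, ClpD1 in 2, CRR6 in 3 and At3g17800 in all 8. The 21 calls of the list were 5 without sprayed S2 replicate 1 or sprayed S1 replicate 3, 6 without sprayed S2 replicate 3 or sprayed S1 replicate 2, 10 without sprayed S2 replicate 4, and 13 without sprayed S2 replicate 2 or sprayed S1 replicate 1. Nuclear photosynthesis and pigment features had no call among 62 by edgeR, with a median of 0.20 (log2). Of these, 11 were higher and 4 lower at an unadjusted p under 0.05, DESeq2 called 3 higher and 1 lower, and limma-voom called 2 lower.

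Calls in other lists were few and of both signs. Called were 1.41% of 71 lipid features, 1.44% of 139 F-box and ubiquitin features and 1.54% of 65 ERF and zinc finger features. The share was 1.61% of 62 redox, 2.99% of 67 sugar and starch and 3.17% of 63 pentatricopeptide features. It was 3.33% of 30 pathogenesis-related and 5% of 20 clock and light-signalling features, against 3.57% of all described features. Higher in sprayed S2 were phototropin, a blue-light receptor (79.3 ± 2.64 CPM in sprayed S2 and 56.8 ± 5.44 CPM in sprayed S1, SD, n = 4 each), the sugar transporter ERD6-like 16 (log2 fold change 0.60, adjusted p = 0.00309), a mitochondrial pentatricopeptide repeat protein At1g12775 (0.63, adjusted p = 0.00297) and a GDSL esterase/lipase (0.79, adjusted p = 0.0457). Monodehydroascorbate reductase, which regenerates the antioxidant ascorbate, was higher by 0.44 (log2, adjusted p = 0.0418). A second feature of that name, spelled differently in its description and noticed after its value was seen, was lower by the same test (-0.97 on the log2 scale, adjusted p = 0.00826). Lower were the stress-related zinc finger protein NFXL1 (-1.24, adjusted p = 0.0444), a PTI6-like activator (-1.62, adjusted p = 0.0176) and the RING-H2 protein ATL74-like (-1.83, adjusted p = 0.0439, all log2). The PTI6-like activator, of a family that in tomato binds promoters of pathogenesis-related genes, had 3.54, 7.82, 3.41 and 7.68 CPM in sprayed S2, against 19.0, 18.3, 22.3 and 9.61 CPM in sprayed S1. Its untreated levels were 0.521 to 0.808 CPM in S2 and 0.424 to 0.864 CPM in S1. ERD6-like 16 and At1g12775 were called in all 8 fits that leave out a sprayed library. The lower monodehydroascorbate reductase was called in 7, phototropin and the PTI6-like activator in 4 and NFXL1 in 2. The GDSL esterase/lipase, the higher reductase and ATL74-like were called in 1.

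While 3.57% of all described features were called by edgeR, 6 of the lists on immunity, signalling and the cell wall held no call. They comprise 36 NLR immune receptors, 89 receptor-like kinases, 52 WRKY, NAC and MYB factors, 43 hormone features, 67 calcium and MAP kinase features and 71 cell wall features. At an unadjusted p under 0.05, 3 NLR features were higher and 3 lower, 4 receptor-like kinases higher and 4 lower, 1 WRKY, NAC or MYB factor higher and 6 lower, 3 hormone features higher and 2 lower, 4 calcium and MAP kinase features higher and 8 lower, and 9 cell wall features higher and 2 lower. Of all tested features, 7.03% were higher and 6.58% lower at that level. DESeq2 called 1 receptor-like kinase lower, 1 WRKY, NAC or MYB factor higher and 1 lower, 1 hormone feature higher and 1 calcium or MAP kinase feature lower. Limma-voom called 2 WRKY, NAC and MYB factors and 2 calcium and MAP kinase features lower. Medians of these 6 lists lay between -0.13 and 0.09 on the log2 scale.

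Resistant plants gave a comparison that shares no library with sprayed S2 and S1, although both come from the same fit. Sprayed R2 against sprayed R1 had 102 calls (0.407% of features), 22 higher and 80 lower. Of the features lower in sprayed S2, 55 were also lower in sprayed R2, which is 55 of 185 on the susceptible side and 55 of 80 on the resistant side, and 140 of the 185 were lower there at an unadjusted p under 0.05, against 1319 of all tested features (5.27%). Of the 151 features higher in sprayed S2, none was called in either direction in sprayed R2 by edgeR, while 21 were higher and 4 lower at an unadjusted p under 0.05, against 1264 (5.05%) and 1319 of all tested features. DESeq2 and limma-voom were not run on the resistant pair.

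To place the sprayed populations on a scale chosen from other libraries, the features that rose with spray in the mean of R1 and R2, by at least 1 on the log2 scale at an adjusted p under 0.05 (edgeR), were averaged in every library. There were 603, a set defined after these data had been seen. Their mean log2 CPM was 0.45, 1.25, 0.78 and 1.17 in sprayed S2, against 1.67, 1.74, 1.75 and 1.12 in sprayed S1. The groups overlap only at sprayed S1 replicate 4, which lay below sprayed S2 replicates 2 and 4. The group means were 0.91 ± 0.37 in sprayed S2 and 1.57 ± 0.30 in sprayed S1, against -1.24 ± 0.08 in untreated S2 and -1.21 ± 0.16 in untreated S1 (log2 CPM, SD, n = 4 each). Of the 603 features 59 were lower and none higher in sprayed S2 by edgeR, against 0.739% lower and 0.603% higher over all tested features. Of the 7697 described features, where calls were more frequent, 165 were lower and 110 higher. At an unadjusted p under 0.05, 204 were lower and 6 higher, against 6.58% and 7.03% of all tested features. DESeq2 called 98 lower and limma-voom 114 lower, and neither called one higher. Sprayed R2 and R1, which chose the features, had means of 0.46 and 1.17. Over the 230 features that fell by at least as much in the mean of the resistant populations, the mean was -0.28 ± 0.34 in sprayed S2 and -0.08 ± 0.38 in sprayed S1 (log2 CPM, SD, n = 4 each), and 2 of them were higher and 1 lower in sprayed S2. Sprayed S1 replicate 4 is also the library without which calls were most numerous, at 401.

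**Figure D5:**
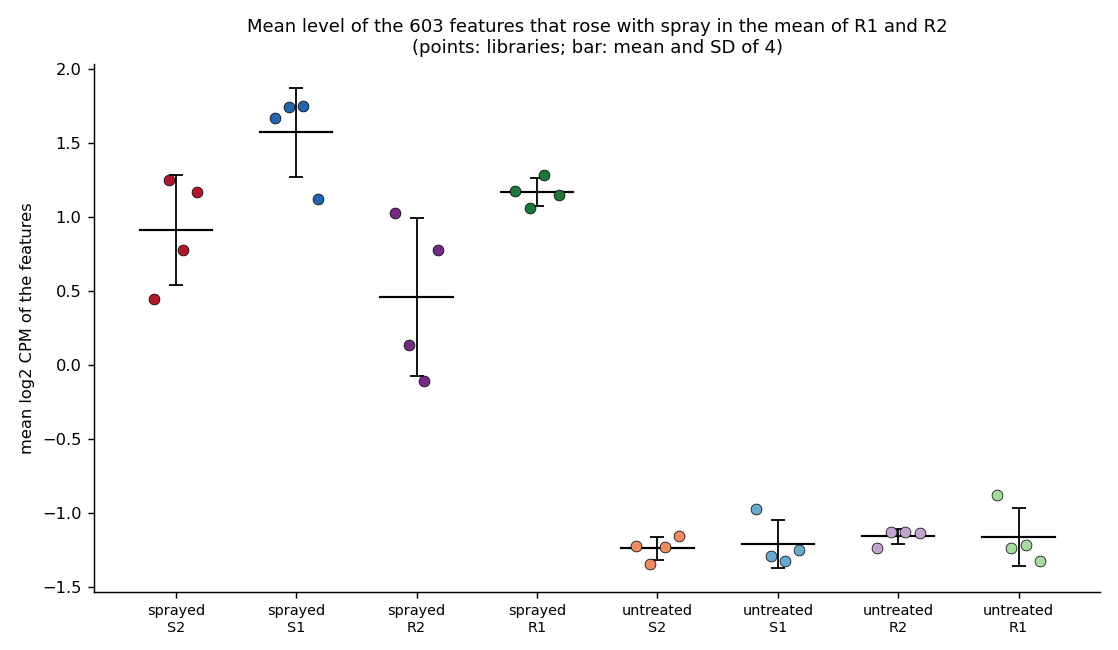
Mean log2 CPM (y axis) of the 603 features that rose with spray in the mean of R1 and R2, for each library of the 8 groups (x axis). Points are libraries, and bars give the mean and SD of 4. Sprayed S2 libraries lie between 0.45 and 1.25, sprayed S1 libraries between 1.12 and 1.75, and no untreated library is above -0.88.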

How the data were processed

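Total RNA was sequenced after ribosomal RNA depletion with a stranded kit, per the labels' protocols. The authors deposited raw counts per open reading frame of an assembled transcriptome; per the submitters' processing notes the tools were R 3.6.1, DESeq2 1.24.0, the aligner STAR 2.5.2b and, for read quality, FastQC 0.11.5, while assembly, counting settings and use of strand are not given in the sources used here. Frames on 1 contig, antisense frames and paralogues may share reads. Descriptions come from the authors' deposited table of log2 fold changes and adjusted p-values, whose values were not used.

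Features passing filterByExpr (minimum count 10, minimum total 15) were fitted in all 32 libraries as 8 group means with edgeR 4.0.16 (R 4.3.3), TMM scaling and robust quasi-likelihood, leaving 24 residual degrees of freedom. Contrasts were sprayed S2 minus S1, the same untreated, and their difference, each adjusted by Benjamini-Hochberg with a threshold of 0.05. Limma 3.58.1 and DESeq2 1.42.0 served as alternatives. Mean log2 CPM used a prior count of 2. Total counts, from 29560000 to 46060000 in the S libraries, bound the counting precision. The 10 most abundant features took 66.1% to 68.5% of counts in sprayed S2 and 62.7% to 67.1% in sprayed S1. The depth left for the other features was lower accordingly. In simulated counts with known changes the sprayed test recovered 58% of 2-fold and 87% of 4-fold changes, and the test of the difference 33% and 75%. The changes were put into sprayed S2 only, and the untreated test called 0 features there, so its recovery was not measured. Only features above a minimum mean CPM were changed, so recovery in features of lower level was not measured either. The simulated features varied independently around a common baseline, without a spray response and without shifts shared by a whole library. Recovery in the real libraries may therefore be lower. Replicates within groups differed beyond sampling noise (chi-square per degree of freedom at least 16.4). Replicate numbers are shared by all groups, but no label says that they pair samples. Among S2 and S1 libraries, TRINITY_DN13508_c0_g1_i1.p1 had counts only in replicate 1 of sprayed and of untreated S2. TRINITY_DN22777_c1_g1_i1.p1 had counts only in sprayed S1 replicates 1 and 4 and untreated S1 replicate 3. Whether the numbers mark shared material was not tested.

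Named features are the called ones with the smallest p per direction with a log2 fold of at least 1 and an informative description. Added to these are the leading call of each word list over the descriptions per direction and the target enzyme. So are the most counted features found in only 1 of S2 and S1, and the undescribed features with the smallest p among the higher ones. Further list members are given as examples chosen after their values were seen. Members and lists were chosen with earlier results of these data known. Lists match words, so that periodic tryptophan protein 1 fell among amino acid features. No sequences or genome coordinates were used here.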

Additional observations from a re-analysis of the deposited data

Results flagged for a closer look

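Of 132 groups of 4 libraries examined, 6 held a library far from the other 3, and chance gives about 1 in 20. For the F-box protein At5g04010, sprayed S2 replicate 4 stood high at 0.643 CPM and sprayed S1 replicate 1, the only sprayed S1 library with a count, at 0.0257 CPM. For cytochrome P450 72A15, sprayed S2 replicate 1 stood low at 26.3 CPM. The share of counts in flower and pollen words was highest in sprayed S1 replicate 4, at 0.00372%. The share in features described as RNA-dependent RNA polymerase stood high in sprayed S1 replicate 2 at 0.0235% and in untreated S1 replicate 4 at 0.0160%.

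The difference between S2 and S1 changed with spraying, by the test of that change, for 7 features. The log2 change was -1.84 for the sulfite exporter family protein 4 and -1.66 for the other frame of its contig, -1.58 for the large subunit of 3-isopropylmalate dehydratase and -1.48 for the other frame of that contig, and -4.00, -1.59 and -1.67 for 3 unnamed proteins.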

How the results depend on the processing

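For sprayed S2 against sprayed S1, the 336 calls were 65 to 401 when single libraries were left out, 191 without a filter, 189 from the 8 sprayed libraries alone, 774 with DESeq2 and 147 at a log2 fold of at least 1. Another filter, RLE scaling, library totals, removal of the 10 most abundant features, the 16 susceptible libraries, sums over assembler genes and limma-voom stayed within 1.5 times the count. For the untreated populations the 2 calls were 2 to 3 without single libraries, 4 without a filter, with 16 libraries or with limma-voom, and 58 with DESeq2. For the change with spraying the 7 calls were 2 to 39 without single libraries, 20 with library totals alone, 3 with limma-voom and 113 with DESeq2. With 16 libraries they were 0, with 860 higher and 971 lower features at an unadjusted p under 0.05. Features called in both conditions were 4 without a filter, with 16 libraries or with limma-voom and 19 with DESeq2, and the 4 of limma-voom held none of the 2. With the replicate number as a block the sprayed calls were 214 and the changes with spraying 4. List counts moved too: with the 8 sprayed libraries alone, calls were 4 for translation, 4 for splicing, 1 for UGT, 2 for ABC transporters and 11 for chloroplast features, and DESeq2 called 19, 8, 19 and 48 for splicing, UGT, ribosome assembly and chloroplast. Same-numbered samples did not deviate together (correlations -0.09 to 0.09). Only replicate 2 of sprayed S2 with sprayed S1, and replicate 1 of sprayed with untreated S1, correlated best with their own number. Of 2140 values of named features under alternatives, 1504 stayed on the same side of the threshold, called or not called. A further 628 were no longer called and 8 were newly called. None that was called in either fit reversed its direction. Changes of sign among values called in neither fit were not counted. The causes were not tested. The smaller the change, the fewer were recovered in simulation, so features not called are not shown to be equal.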

Other observations

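The 2 features described as RNA-dependent RNA polymerase took 0.00357% to 0.0573% of counts in sprayed S2 and 0.000196% to 0.0235% in sprayed S1, and 0.000102% to 0.0439% in untreated S2 and 8.03e-05% to 0.0160% in untreated S1. Neither was called between the sprayed populations by edgeR, DESeq2 or limma-voom, nor had an unadjusted p under 0.05.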
